A study of Homo sapiens with 2 samples.

Results

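The contacts described here are those of the zinc finger gene clusters of chromosome 19 in METTL3 HiChIP of IMR90, primary diploid fibroblasts of human fetal lung. In HiChIP, neighbouring stretches of cross-linked chromatin are ligated and an antibody then pulls down the ligation products that carry a given protein. That protein was METTL3, the enzyme that places N6-methyladenosine on RNA. The labels give 1 control library and 1 senescent library, whose cells were driven into senescence by inducible ER:RAS, an estrogen receptor joined to H-RASG12V. Both are labelled wild type and were grown at low oxygen. The labels do not say whether the control cells carried the fusion without its inducer. Members were the listed interactions of which at least 1 anchor (an interval that an interaction joins to another) overlapped 1 of 4 stretches of chromosome 19 in hg19. Cluster 1 lies at 19.8 to 24.2 Mb, cluster 2 at 36.7 to 38.3 Mb, cluster 3 at 52.3 to 53.9 Mb and cluster 4 at 57.0 to 58.9 Mb, together 9.5 Mb. The senescent library held 458 members among 150390 interactions, and the control library held 0 among 12221. Each group has 1 library, so no difference between them was checked by replicates, and the 95% intervals given cover counting error alone.

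Zinc finger proteins of this family bind DNA through arrays of fingers, and many carry a KRAB domain, which recruits the corepressor TRIM28 and the histone methyltransferase SETDB1. They are known above all for silencing retrotransposons, and their genes arose by repeated tandem duplication. The clusters are known as stretches of chromatin marked by H3K9me3 that run over the 3' ends of the genes, within a chromosome otherwise dense in active genes. In the RefSeq list of GRCh38, 268 of the 1451 protein-coding genes of chromosome 19 had the symbol of a zinc finger family (ZNF, ZFP, ZSCAN and the like), 42.5% of the 630 such genes of the genome. They stood in 21 runs of at least 4 neighbours, and the longest run had 27 genes, from ZNF737 to ZNF681. It includes ZNF91, a KRAB zinc finger protein known to repress SVA retrotransposons. The interaction tables carry coordinates only and the gene list is of another build, so anchors are given by position and none is assigned to a gene or read as sequence.

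The control library listed no contact and no anchor in any of the 4 clusters. Of its 12221 interactions 39 lay on chromosome 19, and 0 of these touched a cluster, which the exact Clopper-Pearson interval bounds at 9.03%. In the senescent library 458 of 8274 chromosome 19 interactions did, or 5.54% (5.05 to 6.05%). That share applied to the 39 control interactions gives 2.16, so at this depth the control 0 cannot be told apart from the senescent share. Over all chromosomes the clusters held 0.305% of the senescent interactions (0.277 to 0.334%). With a floor of 3 interactions in place of the control 0, the senescent share was 12.4-fold higher (11.3 to 13.6, error of the senescent share alone). That floor is 0.0245% of the control interactions, and the exact interval of the control share reaches 0.0302%. The value of 12.4 is thus no lower limit, and it covers listed interactions only. Chromosome 19 as a whole moved the same way, with 0.319% of the control and 5.50% of the senescent interactions.

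The control library had 62 anchors on all of chromosome 19, so the distances to the clusters that follow describe a sparse list. The nearest control anchor to cluster 1 lay 666 kb below it, at chromosome 19 from 19131031 to 19133565. Above cluster 2 the nearest was at 38767680 to 38769392, 468 kb from the border. Clusters 3 and 4 had no control anchor above them, and the last one below, at 50258864 to 50261210, lay 2039 kb from cluster 3. In windows of 100 kb, 67 of the 95 cluster windows (70.5%, 60.3 to 79.4%) held a senescent anchor and no control anchor. Over the 22 autosomes this held for 41.2% of windows, and over the rest of chromosome 19 for 84.5%. The clusters thus lay between the genome and the rest of their chromosome in this count, and the windows without a senescent anchor were mostly those of cluster 1. Control anchors lay in 35 of the 444 windows on the rest of chromosome 19 and in 0 of the 95 cluster windows.

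Within the senescent library the clusters together were sparser in METTL3 HiChIP anchors than the rest of chromosome 19, and cluster 1 was by far the sparsest. The clusters together held 231 anchors, or 24.3 per Mb (21.3 to 27.7, exact Poisson interval). This pools clusters that ran from 7.73 per Mb in cluster 1 to 47.4 per Mb in cluster 4. The rest of chromosome 19, without its anchor-free stretch around the centromere, held 2780, or 63.0 per Mb (60.7 to 65.4). This rest was set by position alone, and any zinc finger genes outside the clusters stayed in it. Contrasts with it are thus not between zinc finger genes and chromatin free of them. The density outside was 2.59 times that of the clusters (2.26 to 2.98, exact conditional binomial interval). Interactions numbered 48.2 per Mb of cluster (43.9 to 52.8), against 177 per Mb outside (173 to 181). An interaction that touched both sides of a border was counted with the clusters.

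The clusters fell into a low, a middle and a high pair of values along the chromosome. Cluster 1 had 39 interactions on 41 PETs (paired-end tags, the read pairs that join anchors), with 34 anchors. That is 7.73 anchors per Mb (5.35 to 10.8) and 8.86 interactions per Mb (6.30 to 12.1). Cluster 2 had the same number of anchors, 34, on a shorter stretch, which makes 21.3 per Mb (14.7 to 29.7). Its 58 interactions carried 63 PETs and made 36.3 per Mb (27.5 to 46.9).

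Cluster 3 had 162 interactions, 180 PETs and 73 anchors, and cluster 4 had 199, 231 and 90. These correspond to 101 interactions per Mb (86.3 to 118) and 105 (90.7 to 120). Per Mb, interactions in cluster 4 were 11.8 times those of cluster 1 (8.35 to 17.1) and 2.89 times those of cluster 2 (2.15 to 3.94). Clusters 3 and 4 did not differ beyond counting error, with a ratio of 1.03 (0.836 to 1.28). Interactions of a cluster share anchors, so these intervals are too narrow by an unknown amount.

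**Figure D1:**
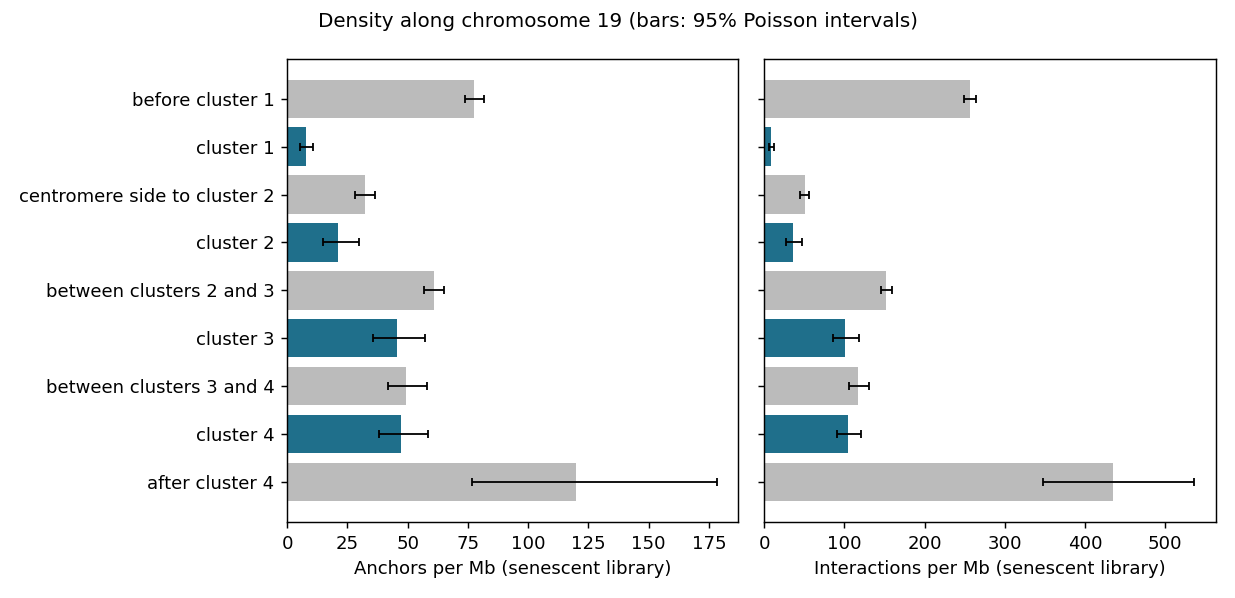
Anchors per Mb (left) and interactions per Mb (right) in the senescent library for each zinc finger cluster (blue) and for the stretches of chromosome 19 between them (grey), in order along the chromosome, with 95% Poisson intervals. Cluster 1, at 7.73 anchors per Mb, is the lowest, and clusters 3 and 4 have anchor densities whose intervals overlap that of the stretch between them.

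The flanks of the clusters had their own densities, in the order of the chromosome. The stretch before cluster 1 was dense, with 77.6 anchors per Mb (73.8 to 81.6), against the 7.73 of the cluster. The stretch between the centromere and cluster 2 had 32.1 anchors per Mb (28.0 to 36.5), against 21.3 in cluster 2, and the intervals overlapped. Between clusters 3 and 4 the density was 49.4 per Mb (41.8 to 57.8), close to the 45.6 of cluster 3 (35.8 to 57.4) and the 47.4 of cluster 4 (38.1 to 58.2). Between clusters 2 and 3 it was 60.7 (56.7 to 64.9). Above cluster 4, the 0.200 Mb up to the last anchor had 120 per Mb (76.8 to 178), beyond the interval of cluster 4. Clusters 3 and 4 thus had densities near that of the stretch between them. Cluster 4 stood below its upper flank, and cluster 1 far below its lower flank.

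Anchors were spread unevenly within each cluster. In cluster 1 the lowest 0.5 Mb, next to the dense flank, held 11 of the 34 anchors. No anchor overlapped 22035778 to 23299078, a gap of 1263 kb, while 23 anchors lay below it and 11 above. No interaction spanned this gap, so the listed contacts of cluster 1 formed a lower and an upper set with no link. Only 20 of its 44 windows of 100 kb held an anchor, against 14 of 16 in cluster 2, 16 of 16 in cluster 3 and 17 of 19 in cluster 4.

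In cluster 4 the anchors crowded toward the end of the chromosome. From 57.0 to 57.5 Mb there were 7 anchors, from 57.5 to 58.0 Mb there were 20, from 58.0 to 58.5 Mb 28, and from 58.5 to 58.9 Mb 35. The interactions that touched these slices numbered 10, 54, 63 and 108. Cluster 3 was more even, with 19, 25 and 25 anchors in its successive slices of 0.5 Mb and 4 in the last 0.1 Mb. Its longest stretch without an anchor was 77.3 kb, the shortest of the 4 clusters. In cluster 2 the longest was 254 kb, from 37408480 to 37662578, and it was spanned by 7 interactions.

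**Figure D2:**
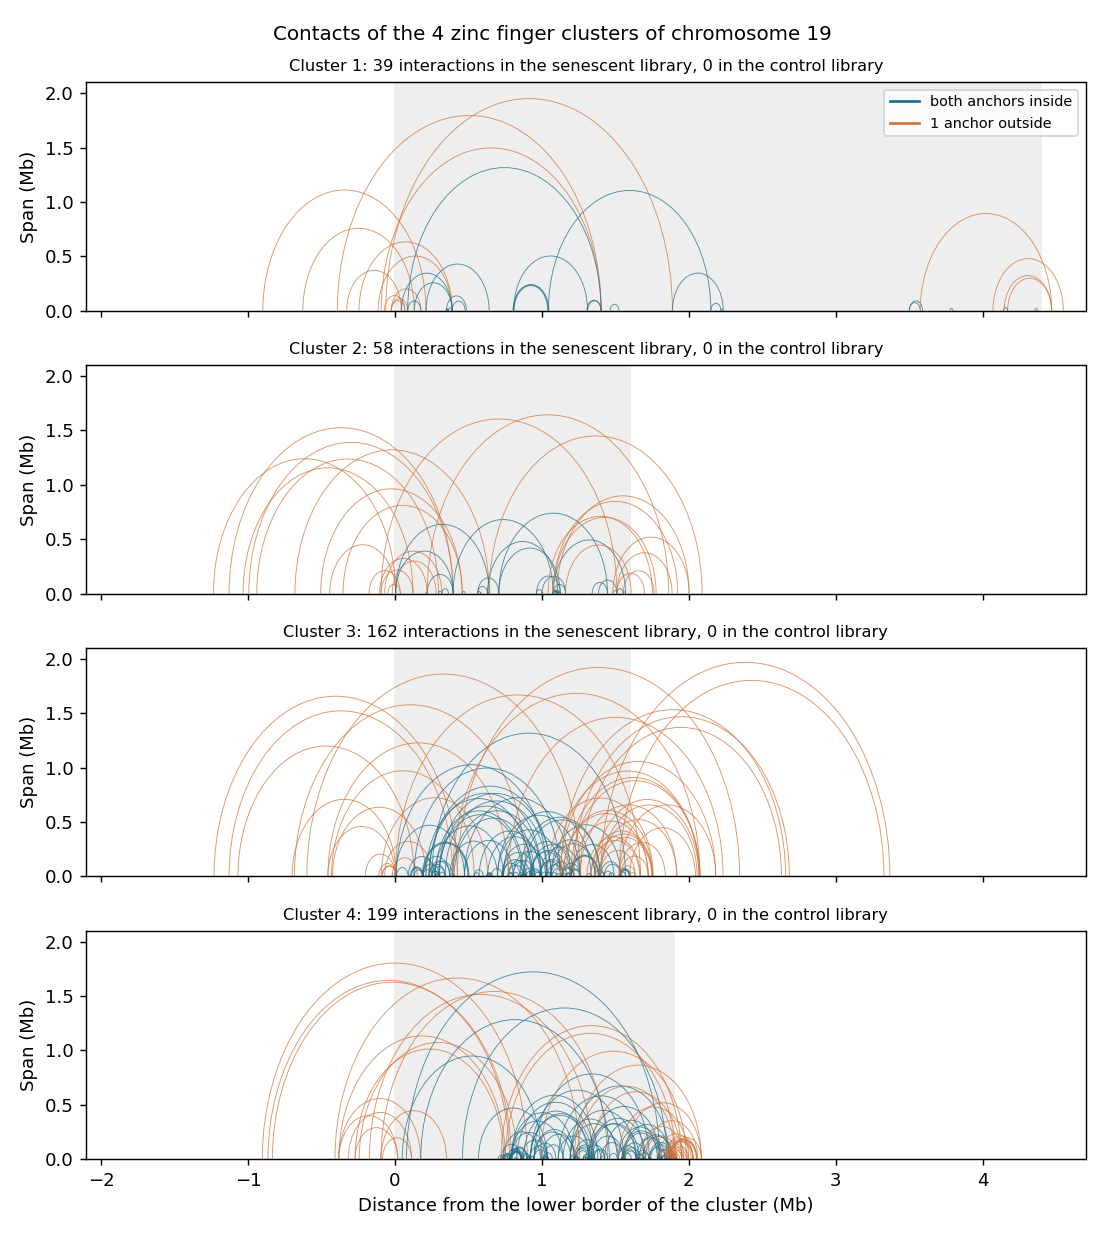
Interactions of each cluster in the senescent library as arcs from anchor midpoint to anchor midpoint, against the distance from the lower border of the cluster (Mb). Arc height is the span (Mb), line width grows with PETs, grey marks the cluster, blue arcs have both anchors inside and orange arcs 1 anchor outside. Cluster 1 shows 39 arcs and an empty stretch, and in cluster 4 the arcs crowd at the upper end.

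Most contacts of the clusters stayed inside them. Both anchors lay in the same cluster for 312 of the 458 interactions (68.1%, 63.6 to 72.4%), and 146 left it (31.9%). This share depends on the length of a stretch. It was 86.5% in the 3.1 Mb between clusters 3 and 4 and 95.5% in the 7.11 Mb between the centromere and cluster 2. In the 14 Mb between clusters 2 and 3 it was 98.6%, in the 19.6 Mb before cluster 1 99.8%, and in the 0.200 Mb above cluster 4 57.5%. By cluster the inside share was 59.0% in cluster 1 (42.1 to 74.4%), 53.4% in cluster 2 (39.9 to 66.7%), 68.5% in cluster 3 (60.8 to 75.6%) and 73.9% in cluster 4 (67.2 to 79.8%). Those intervals overlap from cluster 1 to cluster 4, except that the interval of cluster 2 ends below where that of cluster 4 begins. No interaction joined different clusters, which lie farther apart than the 2 Mb that listed spans reach. Across a whole cluster only 1 interaction passed, over cluster 3, with 1 PET and a span of 1690 kb.

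Contacts that left a cluster were long and rested on single PETs. Measured from anchor midpoint to anchor midpoint, inside contacts had a median of 77.7 kb (61.0 to 92.6 kb, order-statistic interval) and outward ones 491 kb (376 to 657 kb). Of the outward contacts 40 of 146 (27.4%) spanned more than 1 Mb, against 7 of 312 inside contacts (2.24%). At least 2 PETs were found for 41 inside contacts (13.1%, 9.60 to 17.4%) and for 3 outward contacts (2.05%, 0.426 to 5.89%). A contact that leaves a cluster has to reach its border, so distance differs between these classes by construction.

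**Figure D3:**
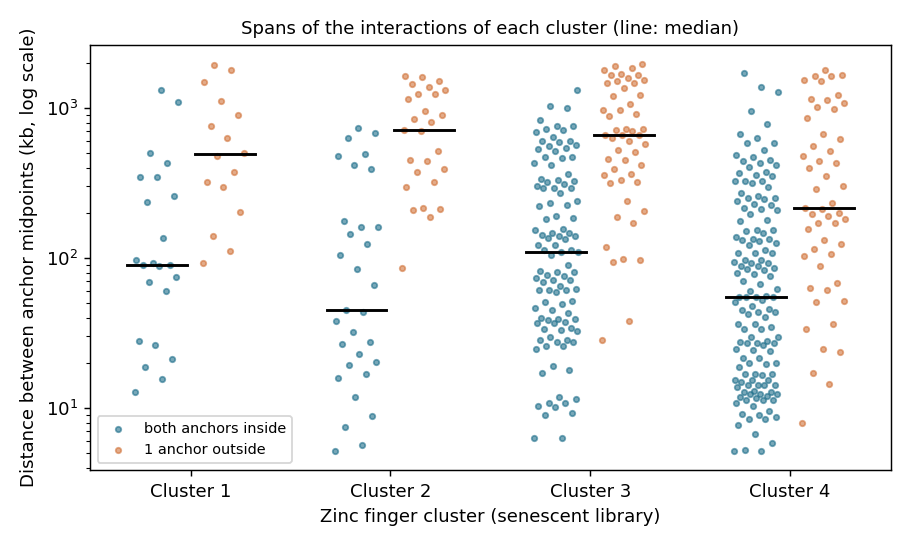
Distance between anchor midpoints (kb, log scale) of every interaction of the 4 clusters in the senescent library, with both anchors inside (blue) or 1 anchor outside (orange), and the median as a black line. Inside medians run from 44.8 to 110 kb and outward medians from 214 to 710 kb.

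Median inside spans were 90.5 kb in cluster 1 (60.0 to 258 kb), 44.8 kb in cluster 2 (22.95 to 160 kb), 110 kb in cluster 3 (69.1 to 147 kb) and 54.9 kb in cluster 4 (40.4 to 87.9 kb). Their intervals overlap. Outward spans were shortest for cluster 4, with a median of 214 kb (156 to 446 kb), against 657 kb (459 to 909 kb) for cluster 3. Cluster 2 had 710 kb (376 to 1237 kb) and cluster 1 491 kb (201 to 1111 kb).

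Outward contacts numbered 61 below and 85 above the clusters in all. This order depends on the borders: with each moved out by 100 kb there were 90 below and 72 above. From cluster 1, 12 contacts ran to the lower, dense flank and 4 to the upper side, where the anchor-free stretch begins soon after the border. Those 4 ended at only 2 anchors, and 3 of them at 24267972 to 24270947. Cluster 2 sent 16 down and 11 up, with partners up to 1235 kb below its border and up to 491 kb above it.

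Cluster 3 sent 18 contacts down and 33 up, and the upper partners lay a median of 319 kb and at most 1769 kb beyond the border. Cluster 4 sent 15 down and 37 up, all 37 to 15 anchors within 186 kb of its border, where the chromosome ends. Those upper contacts of cluster 4 carried 42 PETs, and they include the only 3 outward contacts with more than 1 PET. The border of cluster 4 at 58.9 Mb runs through a dense group of anchors, so its outward count depends on where the border is placed.

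The borders themselves were crossed by few contacts where anchors were few. The median over 1074 positions, 50 kb apart along chromosome 19, was 30 crossing interactions. At the borders of cluster 1 there were 12 and 4, at those of cluster 2 there were 16 and 11, at those of cluster 3 19 and 34, and at those of cluster 4 15 and 37. Inside the clusters the medians were 2, 10, 28 and 23 crossings, respectively. Crossings at both borders of clusters 1 and 2 and at the upper borders of clusters 3 and 4 were above the inside median, and at the lower borders of clusters 3 and 4 below it.

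Repeated contacts were scarce in the clusters. Of the 458 interactions 414 had 1 PET, 36 had 2, 5 had 3, 1 had 4 and 2 had 5. The share with at least 2 PETs was 9.61% (7.07 to 12.7%), against 18.3% (17.5 to 19.2%) of the 7816 other interactions of chromosome 19. Cluster contacts were also longer, with a median span of 140 kb (112 to 181 kb), against 77.0 kb (73.6 to 80.9 kb) outside. In both comparisons all contacts that cross a border are counted with the clusters. Inside contacts alone had a median span of 77.7 kb (61.0 to 92.6 kb), near that outside, and 13.1% of them (9.60 to 17.4%) had at least 2 PETs. For spans under 20 kb the share with at least 2 PETs was 30.9% over all cluster contacts (21 of 68, 20.2 to 43.3%) and 45.6% outside (43.2 to 48.1%). From 20 to 100 kb it was 13.8% (8.42 to 21.0%) and 20.3% (18.8 to 21.8%). The intervals overlapped in both classes, those under 20 kb only just. Beyond 500 kb, 0 of 107 cluster contacts were repeated, against 12 of 975 outside.

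The interactions with at least 3 PETs joined anchors that lay close together, and the control library had 0 PETs at each interaction named here. In cluster 4 the first joined 58227405 to 58229436 with 58237392 to 58240096, on 5 PETs over 10.3 kb. The next, on 4 PETs over 14.5 kb, joined 58890848 to 58899590 with 58905406 to 58913965, just beyond the border. The third, on 3 PETs over 27.2 kb, joined 58855190 to 58862885 with 58882902 to 58889503. The latter 2 interactions lie at the dense upper end of the cluster. In cluster 2, 5 PETs joined 37801870 to 37805116 with 37807335 to 37810011 over 5.18 kb. The only other repeated contact there, on 2 PETs, joined the first of these anchors with the wide anchor at 37758134 to 37795348, over 26.8 kb. The other 56 interactions of cluster 2 had 1 PET each.

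Cluster 3 reached at most 3 PETs, between 52930139 to 52932010 and 52955959 to 52958026 (25.9 kb) and between 52301505 to 52304809 and 52307301 to 52311675 (6.33 kb). Its strongest long contact joined 52488084 to 52491348 with 52799037 to 52801927, on 2 PETs over 311 kb. The authors' deposited value for it, a p-value or q-value, was 6.84e-05. Cluster 1 had 2 contacts with 2 PETs, and 1 of them reached far: 20605249 to 20609745 was joined with 20843001 to 20845721 over 237 kb, with a deposited value of 9.27e-05. The other, from 20149143 to 20164515, spanned 12.8 kb with a deposited value of 0.204. The other 37 interactions of cluster 1 had 1 PET each. At equal PETs the deposited value was thus lower for the longer contact.

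The longest contacts were single PETs that left their cluster. From cluster 1 the longest ran from 19734387 to 21689876 (1950 kb), and from cluster 2 from 36918467 to 38565185 (1643 kb). From cluster 3 it ran from 53699546 to 55671593 (1968 kb), and into cluster 4 from 56095729 to 57902134 (1803 kb). Each had a deposited value of 0.00394.

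By number of partners, the first cluster anchor ranked 209th among the 3011 anchors of chromosome 19. The median was 3 partners per cluster anchor, against 5 outside, and the highest was 12 against 35. In cluster 4, 58882902 to 58889503 (6.60 kb wide) had 12 partners and 17 PETs, 6 inside and 6 outside, all within 224 kb. The anchor at 57789005 to 57795656 also had 12 partners, of which 11 lay inside, and 1 lay 1626 kb away.

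In cluster 3, 5 anchors tied at 8 partners. Of these 53493739 to 53498592 had the most PETs (11), with 7 inside partners and a reach of 880 kb. The anchor at 52307301 to 52311675, on the lower border, had 10 PETs and 5 of its 8 partners outside. In cluster 2 the anchor with the most partners, 7, was also the widest, 37758134 to 37795348. At 37.2 kb it is the only cluster anchor over 10 kb, against 96 of 2780 outside. In cluster 1, 20187672 to 20191115 had 6 partners, 1 PET each, and 21199204 to 21207361 had 5, all below it, at a median of 1316 kb.

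Anchor width did not set the clusters apart as much as anchor number. The median width was 2851 bp in the clusters (2660 to 2917 bp) and 2978 bp outside (2915 to 3051 bp). By cluster it ran from 2554 bp in cluster 4 to 2983 bp in cluster 3. Neighbouring anchors stood a median of 61.7 kb apart in cluster 1, 34.0 kb in cluster 2, 22.3 kb in cluster 3 and 12.2 kb in cluster 4.

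The inside contacts tied nearly all anchors of clusters 3 and 4 into 1 connected group. In cluster 3, 70 of 73 anchors (95.9%) could be reached from each other through inside contacts, and in cluster 4, 86 of 90 (95.6%). In cluster 2 the largest such group held 25 of 34 anchors (73.5%). In cluster 1 it held 11 of 34 (32.4%), among 8 separate groups. Most of these links are single PETs, so the groups describe the list and not the contacts of a given cell.

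Listed anchors of a cluster were joined to each other in shares near those of the rest of chromosome 19 up to 500 kb. Every pair of listed anchors 5 kb to 2 Mb apart was counted as joined or not. Under 20 kb, 46.8% of the 139 inside pairs were joined (38.3 to 55.4%), against 46.6% on the rest of the chromosome (45.0 to 48.3%). From 20 to 100 kb the shares were 14.6% (12.2 to 17.3%) and 16.2% (15.7 to 16.8%). From 100 to 500 kb they were 3.30% (2.69 to 3.99%) and 3.22% (3.096 to 3.35%). These intervals overlap in each class. Over pairs whose anchors were each also listed through another partner, the inside count from 20 to 100 kb was lower than at the like-distance rate, with 96 joined pairs against 120, a ratio of 0.802 (0.650 to 0.979). In cluster 4 the ratio in this class was 0.753 (0.5605 to 0.990) over all pairs. Beyond 500 kb it was 1.66 over the 4 clusters (1.15 to 2.32), and 1.47 (0.985 to 2.11) over pairs listed through another partner.

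**Figure D4:**
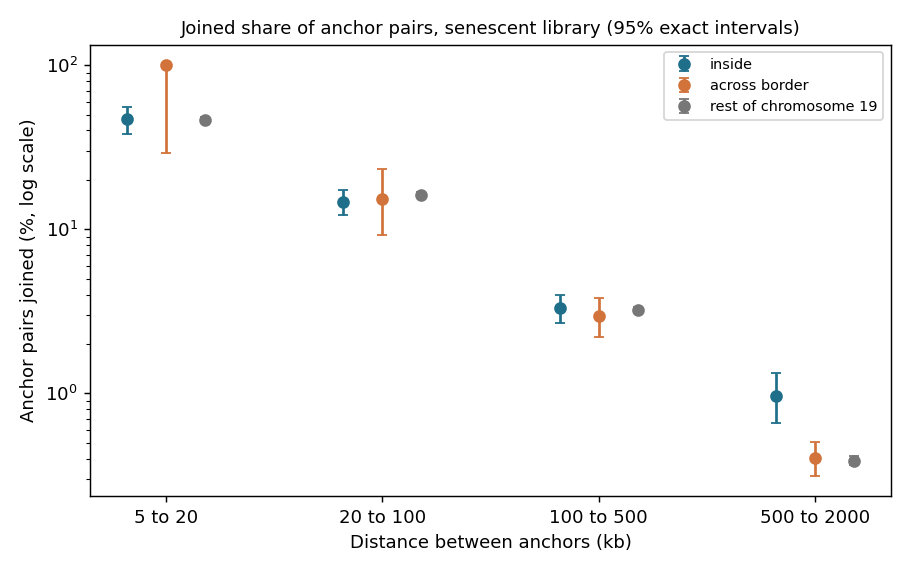
Share of anchor pairs that were joined (%, log scale) by the distance between the anchors (kb) in the senescent library, for pairs inside a zinc finger cluster, across a cluster border and on the rest of chromosome 19, with 95% exact intervals. Points overlap up to 500 kb, and beyond it inside pairs stand at 0.958% against 0.388% on the rest of the chromosome, a gap that is 1.66-fold (1.15 to 2.32) at like distance within this wide class; the point at 100% rests on 3 pairs.

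Over all distances, with the rest of chromosome 19 taken at like distance, 312 inside pairs were joined where 310 were reached at the like-distance rate, a ratio of 1.01 (0.897 to 1.12). By cluster the ratio was 2.15 in cluster 1 (1.36 to 3.22), 1.39 in cluster 2 (0.944 to 1.97), 1.08 in cluster 3 (0.888 to 1.30) and 0.843 in cluster 4 (0.712 to 0.991). An anchor is listed only if it has a partner, and whether this raises the ratio where anchors are few was not tested. Over pairs whose anchors were each also listed through another partner the ratio was 1.56 in cluster 1, and its interval then held 1 (0.850 to 2.61). For cluster 4 it was 0.791 (0.662 to 0.937). In 19 tiles of 2 Mb outside the clusters the first ratio ran from 0.675 to 1.17, so that the values of clusters 3 and 4 lay within that range and those of clusters 1 and 2 above it. Over pairs listed through another partner the tiles ran from 0.550 to 1.17. Clusters 1 (1.56) and 2 (1.24) again lay above them, with intervals that reached into that range. Each tile had 41 to 199 anchors on 2 Mb, against 34 on 4.4 Mb in cluster 1. No tile was as sparse as cluster 1, so its ratio could not be set against like stretches.

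For far contacts inside the clusters, cluster 3 alone had an interval above 1, but ratios above 1 were also found elsewhere. Between anchors 500 kb to 2 Mb apart, 18 pairs were joined in cluster 3 against 7.28 at the rate of the rest of the chromosome, a ratio of 2.47 (1.47 to 3.91). It was 2.42 (1.41 to 3.88) over pairs listed through another partner. In cluster 4 the same count was 10 against 10.9, a ratio of 0.921 (0.442 to 1.69). Clusters 1 and 2 had 3 each, with ratios of 3.69 (0.762 to 10.8) and 1.97 (0.405 to 5.74). Pairs across the border of cluster 3 in this distance class had a ratio of 1.43 (0.980 to 2.02). The highest of the 19 tiles, at 54 to 56 Mb just above cluster 3, reached 1.92, inside the interval of cluster 3. All 18 contacts inside cluster 3 had 1 PET, with spans of 520 to 1317 kb, and no anchor took part in more than 2 of them. The inside class of cluster 3 was 1 of 16 inside combinations of cluster and distance that were looked at, and no adjustment was made for that.

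Pairs across a border were joined no less often than the like-distance rate gave. There were 146 joined pairs against 124, a ratio of 1.17 (0.991 to 1.38). By cluster the ratios were 0.992, 1.08, 1.54 and 1.04, and the interval of cluster 3 (1.15 to 2.02) lay above 1. Inside pairs relative to pairs across the border gave 0.857 (0.702 to 1.05) over the 4 clusters. For cluster 1 this was 2.16 (1.09 to 4.38), and 1.73 (0.766 to 3.92) over pairs listed through another partner. For cluster 3 it was 0.701 (0.499 to 0.997), and 0.732 (0.511 to 1.06) over those pairs. Over pairs listed through another partner, the interval held 1 in each of the 4 clusters, so a difference between inside and outside partners was not detectable at this depth.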

How the data were processed

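Chromatin of formaldehyde-fixed cells was digested with MboI and the recovered DNA tagmented with Tn5, per the labels' protocols. Per the submitters' processing notes, HiC-Pro 3.1.0 and hg19 were used. How anchors and loops were called, how duplicates were removed and how reads matching several near-identical zinc finger paralogs were treated is not given in the sources used here. Headers are absent from both tables. The whole numbers that the authors deposited, from 1 upwards, were taken as the raw count of PETs per interaction (14373 in the control and 184165 in the senescent table). The last deposited column, from 0 to below 1, was taken as a p-value or q-value of the authors. Only pairs with a PET are listed, so the totals are not sequencing depths.

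Interactions were assigned to a cluster where an anchor overlapped it by at least 1 bp. The rest of chromosome 19 and the tiles were set by position, and zinc finger genes were not removed from them. Pairs of anchors were set against the rest of chromosome 19 in 20 distance classes per factor of 10. The ratio was also run on simulated joins, drawn independently at those rates on the real anchors. They did not model that an anchor is listed only with a partner, nor copied PETs, so those effects were not tested. The work used Python 3.11.15 with scipy 1.17.1, pandas 2.3.3, numpy 2.4.6 and matplotlib 3.10.9. With 1 library each the groups could not be tested against each other, and no p-value was computed. Intervals cover counting error only, and PETs copied from 1 molecule would make them too narrow. Coordinates are 1-based. Named were the 3 interactions with the most PETs, the longest interaction, the 2 anchors with the most partners and the widest anchor of each cluster. Ties at 1 PET in clusters 1 and 2 are given as counts. The anchor at 24267972 was named after its values were seen. The clusters and measures were chosen with earlier results of these data known, and the joined pairs, tiles, windows and connected groups were added after the data were seen. Gene symbols come from RefSeq (GRCh38), for names and order only.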

Additional observations from a re-analysis of the deposited data

How the results depend on the processing

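The control count stayed at 0 under every alternative, and cluster 1 had the fewest interactions per Mb under each. Cluster 4 had the most except with borders moved in by 100 kb, a deposited value of at most 0.05 or spans of at least 20 kb, where cluster 3 had (101, 73.8 and 93.1 against 90.0, 60.0 and 81.6 per Mb). Placing anchors by midpoint moved no value. Asking for at least 2 PETs left 44 senescent interactions, 2.98% of those on chromosome 19, and 4.63 per Mb. Against the floor of 3 the senescent share was then 1.10-fold (0.802 to 1.48), with an interval that holds 1. Of these 44 interactions 93.2% lay inside, with 0 leaving below and 3 above and 3 border crossings. Median spans were then 21.6 kb inside and 23.5 kb out, median partners 1 and median width 2990 bp. The ratio of joined pairs inside the clusters rose to 1.45 (1.04 to 1.96), with an interval above 1. For this setting, with a median of 1 partner, the ratio over pairs listed through another partner was not run. The far contacts inside cluster 3 gave 0 by construction, since each has 1 PET, with an interval of 0 to 65.0. Counting PETs gave 4.78% of chromosome 19 and 54.2 per Mb. A deposited value of at most 0.05 gave 305 interactions, 6.30%, 7.59-fold against the floor, 32.1 per Mb and 56.4% inside. The median inside span was then 223 kb, 4.92% had at least 2 PETs and the median was 2 partners. Spans of at least 20 kb gave 10.3-fold, 41.1 per Mb, 63.3% inside, 121 kb, 5.90% and 2 partners. With borders moved out by 100 kb the share was 6.89%, the value against the floor 15.4-fold and the density 55.3 per Mb. Of the cluster 4 contacts 83.8% then lay inside. With borders moved in by 100 kb the share was 4.54%, the value against the floor 10.2-fold and the density 43.2 per Mb. Anchors of at most 10 kb gave 6.54% and 13.9-fold. The far contacts of cluster 3 had ratios of 2.30 to 2.85 under the other alternatives, except PETs in place of interactions, which was not run for joined pairs. Except where an alternative itself removes interactions or moves a border, the cause was not tested. No paired analysis was possible because each group has 1 library.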
